A study of Mus musculus with 9 samples.

Results

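Ribosome biogenesis genes are the 39 members of a set of nucleolar factors that make ribosomal RNA, process it and build the ribosomal subunits. The members were taken by gene symbol and not by a cut on their values, with earlier results of these data known. Each of the 39 was found among the 21356 named genes of the table. All 39 passed the minimum on low values and were among the 14029 genes tested. RNA sequencing was performed on dissected midbrain tissue of C57BL/6 mouse fetuses at E13.5. The 9 libraries fell into 3 genotypes with 3 libraries each. The floxed control was Gpr161 f/f without Cre. The group called Cre control was heterozygous (Gpr161 f/+) with the Wnt1-Cre transgene. In cKO that transgene was combined with Gpr161 f/f. Gpr161 is a receptor of the primary cilium that holds back Sonic hedgehog signaling, and the study asked how its loss changes the midbrain. All 9 libraries carry at least 1 floxed allele. The Cre control keeps 1 wild-type allele and shares the transgene with cKO, so cKO against the floxed control compares the deletion together with the transgene. Wnt1-Cre is used to recombine floxed alleles in the lineage of Wnt1-expressing cells, so other cells of the dissected tissue may keep theirs. Levels are the normalized log2 expression values that the authors deposited, so a log2 difference of 1 is a doubling, and the read depth behind them is unknown. A gene is called, or said to rise or fall, at an adjusted p under 0.05. Gpr161 itself was not lower in the libraries labelled cKO. On the log2 scale it averaged 11.88 ± 0.12 (SD, n = 3) in cKO, with 11.88 ± 0.096 in Cre control and 11.8 ± 0.030 in floxed control libraries (SD, n = 3 each). The table gives 1 value per gene and not per exon, so this value could not check the deletion, and "cKO" below stands for the libraries labelled so.

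A ribosome starts in the nucleolus, where RNA polymerase I transcribes a long precursor RNA from the repeated ribosomal DNA. Small nucleolar RNA-protein particles (snoRNPs) guide 2'-O-methylation (box C/D) or pseudouridylation (box H/ACA) of this precursor, the small subunit processome cuts out the RNA of the small subunit, and other factors assemble the precursor of the large 60S subunit. Growing and dividing cells, such as the progenitors that line the ventricle of the fetal midbrain, make many ribosomes, and the genes of these factors are known targets of the Myc transcription factors.

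The promoters of the members were looked at first, since the genes lie on 16 chromosomes and were measured together. RefSeq windows on GRCm38.p6, from 250 bases before to 50 bases after the start of the gene, were found for 34 of the 39 members and not for Npm1, Fbl, Rrp12, Bop1 and Rrs1. The letters CACGTG, the E-box that Myc-Max and related dimers can bind, stood in the windows of 7 of 34 members (20.6%) against 11.3% of the 11023 tested genes with a window. The letters CCGGAAG on either strand, a core that ETS factors can bind, stood in 11 of 34 (32.4%) against 18.5%. The 120 bases just before the start are shown for 3 members that rose in cKO against the floxed control (Nop2, Gar1, Nolc1) and for Utp18, which holds both motifs and did not pass the test. Capitals mark the letters of the E-box and of the ETS motif, which reads CTTCCGG where it lies on the other strand. The stretches are chr6:125131763-125131882 (plus strand) for Nop2, chr3:129831397-129831516 (minus strand) for Gar1, chr19:46075727-46075846 (plus strand) for Nolc1 and chr11:93885767-93885886 (minus strand) for Utp18.
Nop2: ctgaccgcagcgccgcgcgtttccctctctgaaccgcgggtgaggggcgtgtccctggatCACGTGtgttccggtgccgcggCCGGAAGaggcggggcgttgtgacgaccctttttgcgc
Gar1: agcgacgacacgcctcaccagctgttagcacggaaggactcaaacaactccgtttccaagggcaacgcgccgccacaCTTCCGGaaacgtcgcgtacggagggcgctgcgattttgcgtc
Nolc1: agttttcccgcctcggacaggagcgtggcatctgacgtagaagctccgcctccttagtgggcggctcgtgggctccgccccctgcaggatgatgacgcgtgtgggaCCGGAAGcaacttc
Utp18: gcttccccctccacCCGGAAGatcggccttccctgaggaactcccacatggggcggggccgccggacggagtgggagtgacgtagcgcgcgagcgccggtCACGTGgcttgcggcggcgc
A match describes the letters of a window and is not a binding site. Calls stood among members with and without a motif: 4 of 7 with the E-box against 14 of 27 without it, and 5 of 11 with the ETS motif against 13 of 23 without it, passed the test against the floxed control, where 19.5% of all genes tested rose.

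Levels of ribosome biogenesis genes in cKO exceeded those of the floxed control by small amounts. The log2 difference was above 0 for 39 of 39 members, and for 38 when libraries were centred on their medians (Rrp12 below 0) or corrected for GC content and length (Nop14 below 0). Among all genes tested 52.4% had a difference above 0. Of the 39 members, 21 rose at an adjusted p under 0.05 and 0 fell, against a background of 19.5% of all genes tested that rose and 18.8% that fell (limma, all 9 libraries, Benjamini-Hochberg over 14029 genes). The median log2 difference of the members was 0.172, and that of all genes tested was 0.011. The members that passed were between 10.1% and 28.8% higher in cKO, and 0 members passed when a fold change over 1.5 was also asked for, which 2.92% of all genes tested did. The 3 cKO libraries lay above the 3 floxed control libraries for 27 of 39 members, while such a separation upward was found for 29.9% of all genes tested. In bulk tissue, more cells of a type that expresses these genes and more RNA per cell cannot be told apart.

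**Figure D1:**
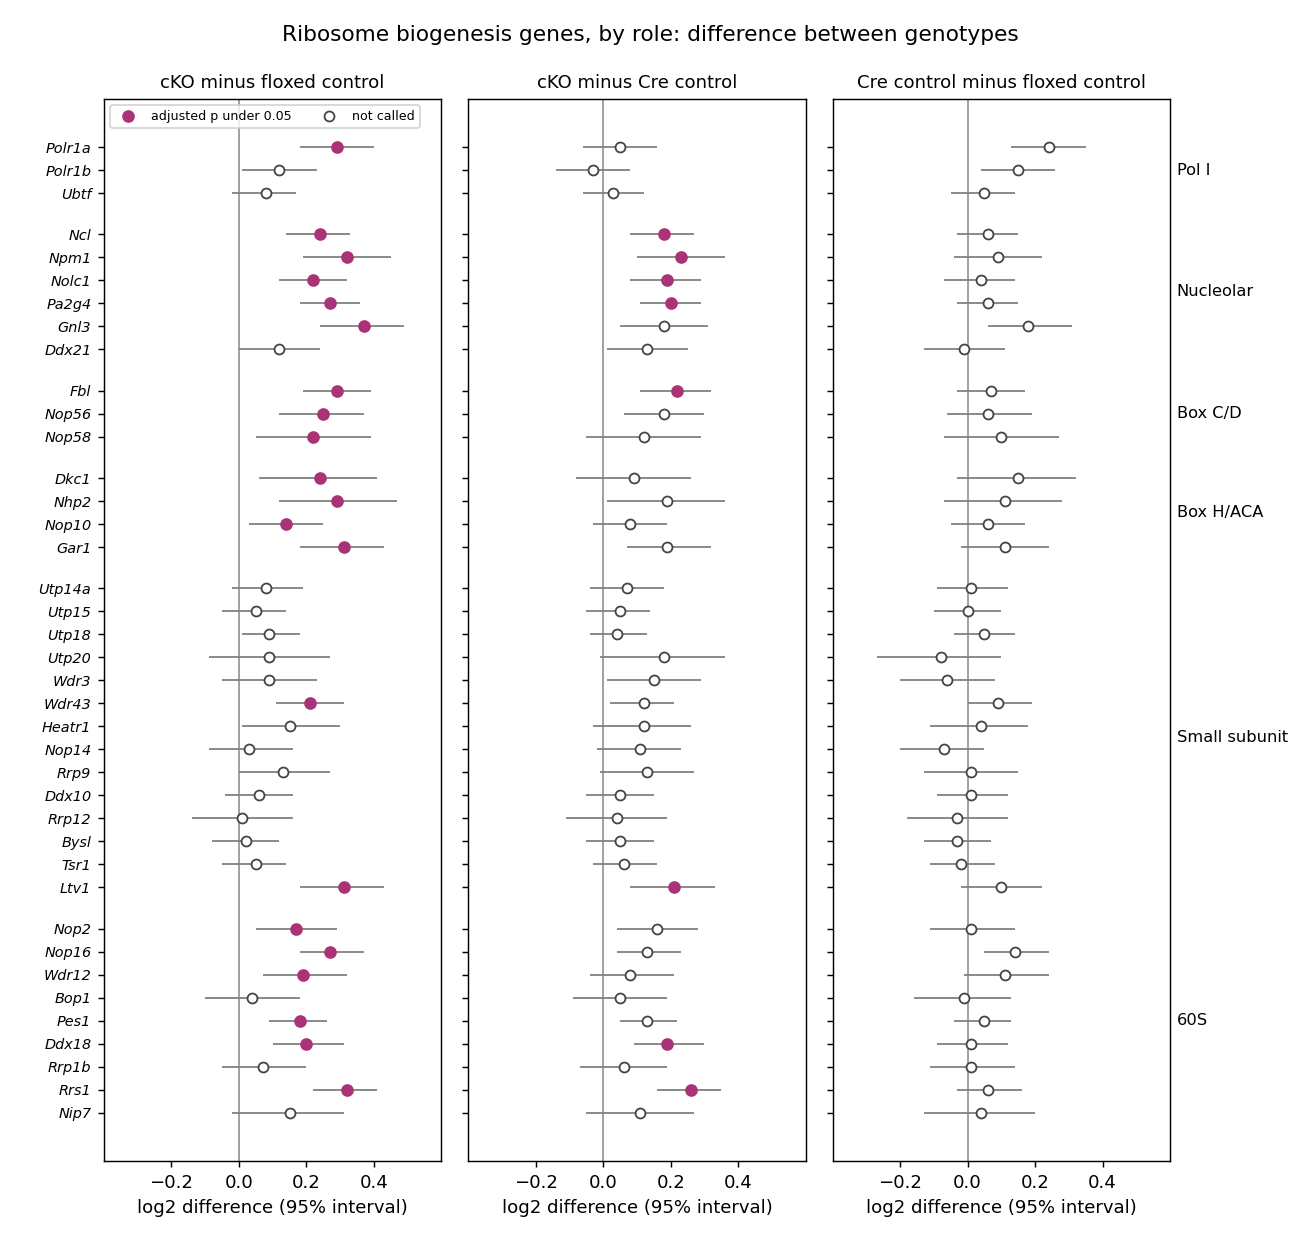
Log2 difference of each of the 39 members between genotypes, grouped by role (dots, limma estimate; bars, 95% interval; n = 3 libraries per genotype; filled dots, adjusted p under 0.05). All 39 dots lie above 0 against the floxed control (38 after median centring or correction for GC content and length) and 38 against the Cre control, with 21, 8 and 0 filled dots from left to right.

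The share of members that rose differed between roles, in classes of 3 to 14 genes. All 3 box C/D members, all 4 box H/ACA members and 5 of the 6 nucleolar proteins with several functions rose against the floxed control. In 60S precursor assembly 6 of 9 rose, in RNA polymerase I transcription 1 of 3, and in the small subunit processome and 40S maturation 2 of 14. The median log2 difference of the small subunit class was 0.086, against 0.264 in the box H/ACA class and 0.247 in the box C/D class. The standard errors were of one size: their median was 0.052 in the small subunit class and between 0.0495 and 0.067 in the other classes. The difference between classes was not tested. In the wider list of other ribosome biogenesis genes given below, 35% of small subunit genes and 35.4% of 60S genes rose. The count of the box H/ACA class was 1 without the first cKO library, 2 without the second cKO library and 2 without the second floxed control library. When 1 library was left out the box C/D count was 2 or 3, that of the nucleolar proteins 5 or 6, that of the 60S class 4 to 6 and that of the small subunit class 2 or 3.

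**Figure D2:**
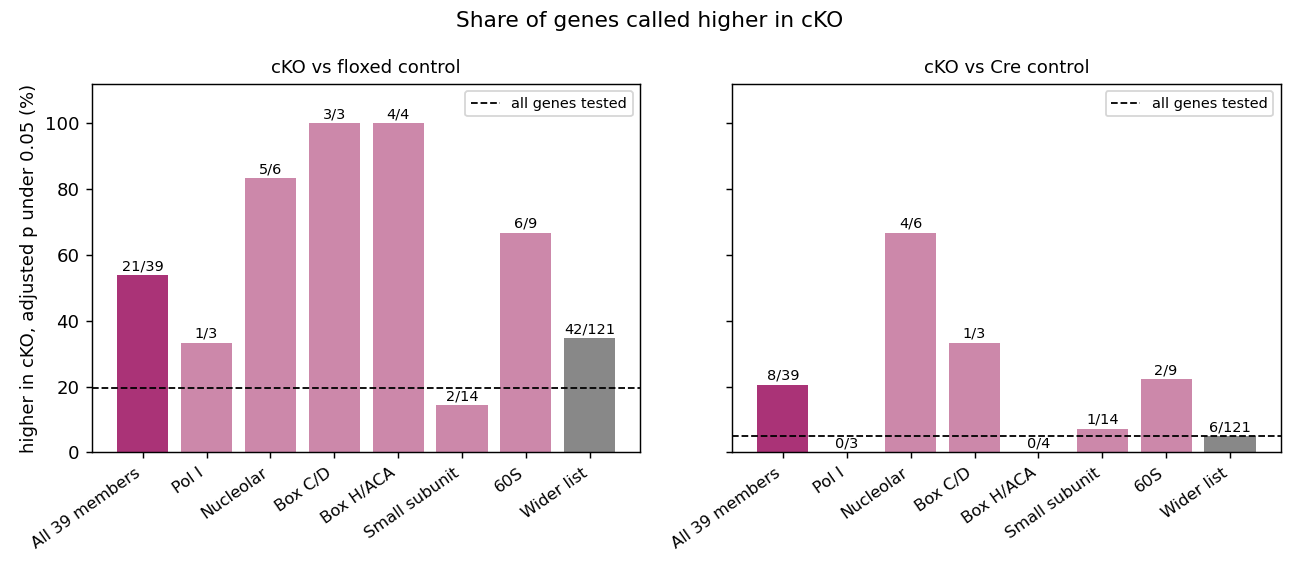
Share (%) of each class called higher in cKO, with the numbers of genes called and tested above each bar, against the floxed control (left) and the Cre control (right); the dashed line is the share of all 14029 genes tested and the grey bar is the wider list of other ribosome biogenesis genes. Against the floxed control the snoRNP classes stand at 3 of 3 and 4 of 4 (box H/ACA at 1 of 4 without the first cKO library) and the small subunit class, at 2 of 14, lies under the line.

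RNA polymerase I transcription was represented by Polr1a, which encodes the largest subunit of the enzyme, Polr1b, its second-largest subunit, and Ubtf, the factor that keeps ribosomal DNA open for transcription. Polr1a was 10.25, 10.22 and 10.21 (log2 value) in the floxed control, 10.38, 10.45 and 10.56 in the Cre control, and 10.55, 10.53 and 10.47 in cKO. Its cKO and Cre control libraries overlapped, and both groups lay above every floxed control library. Polr1a rose in cKO by a log2 difference of 0.29 ± 0.050 (SE; adjusted p = 0.00216, limma) over the floxed control and differed by 0.05 ± 0.050 (adjusted p = 0.514) from the Cre control. Ubtf was 12.40, 12.38 and 12.40 in the floxed control, 12.36, 12.44 and 12.51 in the Cre control, and 12.45, 12.46 and 12.49 in cKO. Its Cre control libraries spanned those of both other genotypes, and its difference of 0.08 ± 0.042 over the floxed control did not pass (adjusted p = 0.175). Polr1b, chosen after its values were seen, was the only member below 0 against the Cre control when all 9 libraries were fitted, by -0.03 (95% interval -0.14 to 0.08). Polr1a overlaps 2 genes on the opposite strand, Gm19078 and Gm26628, and the sources used here do not say whether strand was used in counting.

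Of the 6 nucleolar proteins with several functions, 4 rose in cKO over both controls. The calls of these 4 against the Cre control were lost when only the 6 libraries compared were fitted. When 1 library was left out they were lost in 8 of 9 fits for Npm1 (kept without Cre control replicate 1), in 7 each for Ncl and Nolc1 (kept without Cre control replicate 1 or floxed control replicate 2) and in 3 for Pa2g4 (Cre control replicates 2 and 3 and cKO replicate 1). Quantile normalization also removed the calls of Npm1 and Ncl. Npm1 lost its call after median centring, and Nolc1 without the minimum on low values. Ncl encodes nucleolin, which binds the precursor RNA and nucleolar chromatin, and was 14.18, 14.17 and 14.17 in the floxed control, 14.29, 14.18 and 14.23 in the Cre control, and 14.42, 14.41 and 14.39 in cKO. Every cKO library was above every control library, at a log2 difference of 0.24 ± 0.041 (SE; adjusted p = 0.00224, limma) over the floxed control and 0.18 ± 0.041 (adjusted p = 0.0314) over the Cre control. Npm1 encodes nucleophosmin, a histone chaperone that organizes the granular part of the nucleolus. Its values were 14.34, 14.34 and 14.31 in the floxed control, 14.55, 14.34 and 14.37 in the Cre control, and 14.70, 14.64 and 14.60 in cKO. The first Cre control library stood between its group and cKO, and the rise of 0.32 ± 0.057 (adjusted p = 0.00251) over the floxed control was 24.9%. Against the Cre control Npm1 rose by 0.23 ± 0.057 (adjusted p = 0.0375). Npm1 is known to have processed copies in the genome, so its value may hold reads of more than 1 locus.

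Nolc1 encodes the phosphoprotein Nopp140, a chaperone of snoRNPs. Its log2 values were 11.41, 11.34 and 11.43 in the floxed control, 11.36, 11.44 and 11.49 in the Cre control, and 11.67, 11.58 and 11.60 in cKO. The controls overlapped and cKO lay above both, by 0.22 ± 0.045 (SE; adjusted p = 0.00459, limma) and 0.19 ± 0.045 (adjusted p = 0.0356). Pa2g4 encodes Ebp1, a protein of ribosomal particles in nucleolus and cytoplasm. It was 12.32, 12.29 and 12.33 in the floxed control, 12.41, 12.35 and 12.37 in the Cre control, and 12.65, 12.52 and 12.58 in cKO. The cKO libraries were again the 3 highest, with a rise of 0.27 ± 0.041 (adjusted p = 0.00132) over the floxed control and 0.20 ± 0.041 (adjusted p = 0.0195) over the Cre control.

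Gnl3 encodes nucleostemin, a nucleolar GTPase of stem and progenitor cells, and had the largest log2 difference of the 39 members between cKO and the floxed control. Its values were 9.79, 9.83 and 9.86 in the floxed control, 10.14, 9.95 and 9.94 in the Cre control, and 10.22, 10.19 and 10.16 in cKO. The 3 genotypes did not overlap, and the Cre control lay between the other groups. Gnl3 rose by 0.37 ± 0.058 (SE; adjusted p = 0.00148, limma), or 28.8%, over the floxed control. Its difference of 0.18 ± 0.058 from the Cre control missed the threshold (adjusted p = 0.0744). Gnl3 overlaps Pbrm1 on the opposite strand. Ddx21, an RNA helicase of Pol I transcription and rRNA processing, had the smallest difference of this class, 0.12 ± 0.054 (adjusted p = 0.112). It was 11.89, 11.73 and 11.83 in the floxed control, 11.71, 11.81 and 11.89 in the Cre control, and 11.95, 11.91 and 11.94 in cKO. The 3 cKO values were the highest of the 9, by as little as 0.02 over single control libraries.

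**Figure D3:**
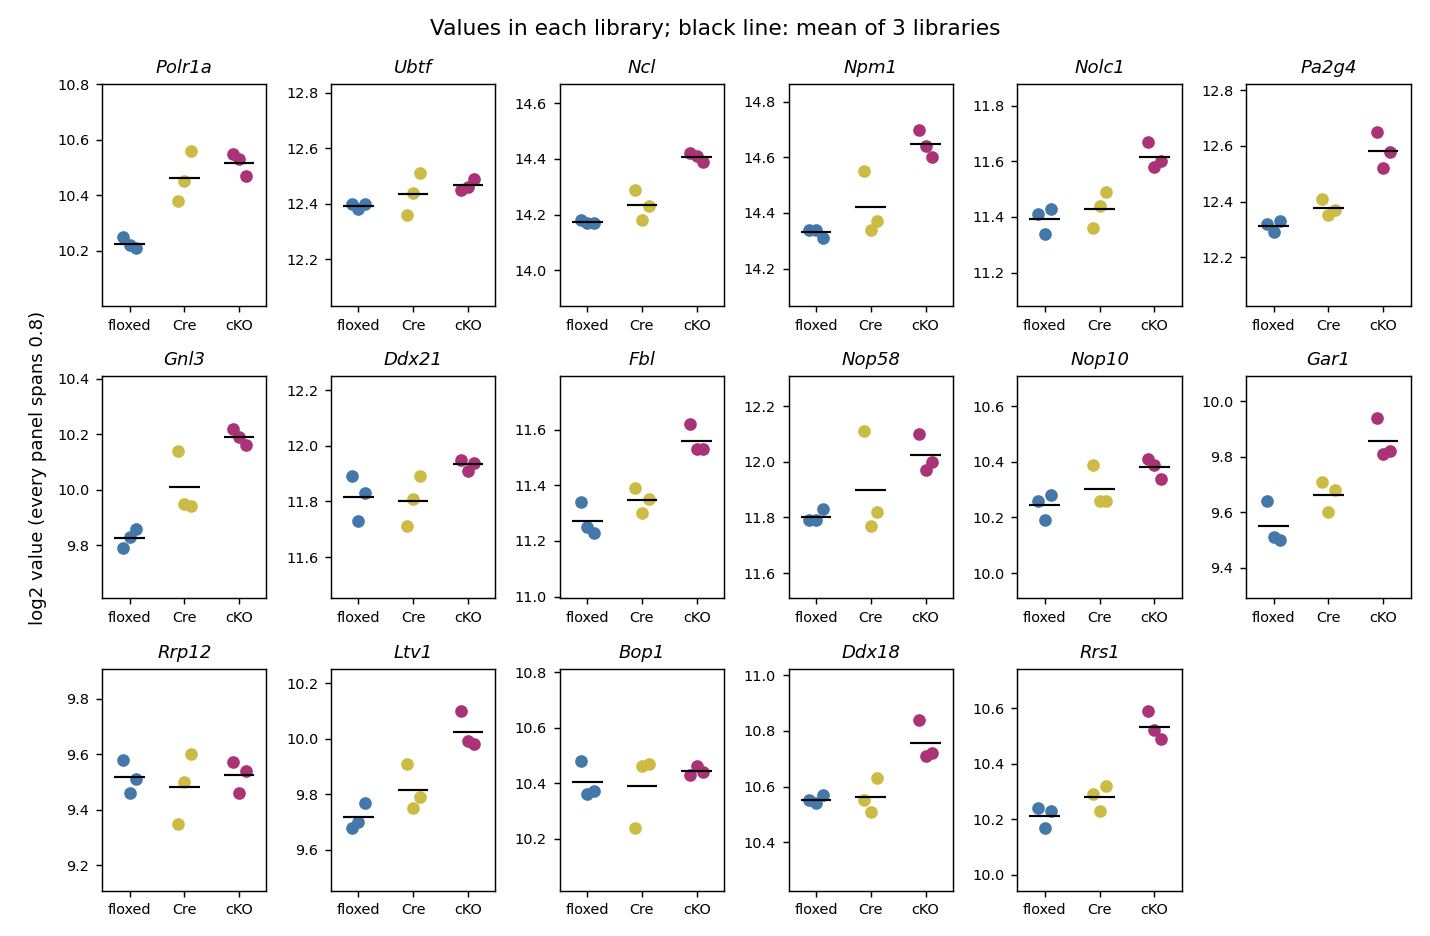
Log2 values of 17 members in each of the 9 libraries (dots) with the mean of each genotype (line, n = 3); every panel spans 0.8 on the log2 axis. In panels such as Ncl, Fbl and Rrs1 the 3 cKO libraries stand above all 6 control libraries, while in the Rrp12 and Bop1 panels the genotypes overlap.

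The 3 members from the core of the box C/D particle rose against the floxed control, Nop58 with a call that many fits lost. Another protein of this core, Snu13, was not found by symbol. Fbl encodes fibrillarin, the methyltransferase of the particle, and was 11.34, 11.25 and 11.23 in the floxed control, 11.39, 11.30 and 11.35 in the Cre control, and 11.62, 11.53 and 11.53 in cKO. Its cKO libraries were the 3 highest, by a log2 difference of 0.29 ± 0.045 (SE; adjusted p = 0.00148, limma) over the floxed control and 0.22 ± 0.045 (adjusted p = 0.0226) over the Cre control. The latter call was lost without Cre control replicates 2 or 3 or cKO replicates 1 or 2. With only the 6 libraries compared, and after correction for GC content and length, it was lost too. Nop58, one of the paired scaffold proteins, was 11.79, 11.79 and 11.83 in the floxed control, 12.11, 11.77 and 11.82 in the Cre control, and 12.10, 11.97 and 12 in cKO. The first Cre control library lay above every cKO library, and the other Cre control libraries lay with the floxed control. Nop58 rose by 0.22 ± 0.077 (adjusted p = 0.0441) over the floxed control, a call that was lost in 6 of the 9 fits that left out 1 library, those without any 1 of the floxed control or cKO libraries, and also without the minimum on low values, with eBayes without a trend, after median centring and after quantile normalization. In these fits the log2 difference of Nop58 was between 0.18 and 0.25. The other scaffold protein, Nop56, rose by 0.25 ± 0.055 (adjusted p = 0.0066).

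All 4 proteins of the box H/ACA core rose over the floxed control and 0 of 4 passed against the Cre control (2 of 4 without the first Cre control library). Gar1, which helps the bound RNA turn over, was 9.64, 9.51 and 9.50 in the floxed control, 9.71, 9.60 and 9.68 in the Cre control, and 9.94, 9.81 and 9.82 in cKO. Its cKO libraries lay above all controls, at a log2 difference of 0.31 ± 0.057 (SE; adjusted p = 0.00301, limma) over the floxed control and 0.19 ± 0.057 (adjusted p = 0.0593) over the Cre control. Nop10, the smallest protein of the core, was 10.26, 10.19 and 10.28 in the floxed control, 10.39, 10.26 and 10.26 in the Cre control, and 10.41, 10.39 and 10.34 in cKO. Its highest Cre control library lay among the cKO libraries, and its rise of 0.14 ± 0.049 was close to the threshold (adjusted p = 0.0487). Without 1 library the call of Nop10 was lost in 8 of 9 fits (kept only without the first Cre control library), and after correction for GC content and length its difference was 0.03 (adjusted p = 0.558). Dkc1, the pseudouridine synthase dyskerin, rose by 0.24 ± 0.077 (adjusted p = 0.0348), and Nhp2, which binds the guide RNA, rose by 0.29 ± 0.078 (adjusted p = 0.0153). Dkc1 lost its call without the second floxed control library or without the first or the second cKO library, and Nhp2 without the first cKO library or after correction for GC content and length.

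The small subunit processome and 40S maturation factors in cKO differed little from the floxed control, apart from Ltv1 and Wdr43. Against the Cre control all 14 were above 0 (median log2 difference 0.088) and 1 passed. Utp20 (0.18), Wdr3 (0.15) and Wdr43 (0.12) did not pass there. Ltv1 encodes a late 40S assembly factor and was 9.68, 9.70 and 9.77 in the floxed control, 9.91, 9.75 and 9.79 in the Cre control, and 10.10, 9.99 and 9.98 in cKO. The cKO libraries were the 3 highest, by a log2 difference of 0.31 ± 0.056 (SE; adjusted p = 0.00266, limma) over the floxed control and 0.21 ± 0.056 (adjusted p = 0.0464) over the Cre control. The call against the Cre control was lost in 8 of the 9 fits that left out 1 library (kept without the first Cre control library). It was also lost without the minimum on low values, with only the 6 libraries compared, after median centring and after quantile normalization. Wdr43, which links Pol I transcription with early processing, rose by 0.21 ± 0.043 (adjusted p = 0.00466) over the floxed control. Rrp12, an export factor of precursor subunits, had the smallest log2 difference of all members, 0.01 (95% interval -0.14 to 0.16). It was 9.58, 9.46 and 9.51 in the floxed control, 9.35, 9.50 and 9.60 in the Cre control, and 9.57, 9.46 and 9.54 in cKO. Its 3 genotypes overlapped throughout.

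The other 11 members of the class did not pass the test. The processome proteins Utp14a, Utp15, Utp18, Utp20, Wdr3, Heatr1, Nop14 and Rrp9 had log2 differences over the floxed control between 0.03 (Nop14) and 0.15 (Heatr1). For the helicase Ddx10, the 40S factor Bysl and the GTPase-like 40S factor Tsr1 the differences were 0.06, 0.02 and 0.05. The upper 95% limit was 0.12 for Bysl, 0.14 for Tsr1 and Utp15, and 0.30 for Heatr1. The estimate of Ltv1 (0.31) lay above the upper limits of all 11, narrowly so for Heatr1. The 95% interval of Ltv1 (0.18 to 0.43) overlapped those of Heatr1 (0.01 to 0.30) and Utp20 (-0.09 to 0.27), among others. A difference between these genes was not tested. Utp18 (0.09 ± 0.039 SE) and Heatr1 (0.15 ± 0.065 SE) reached an unadjusted p under 0.05 and not the adjusted threshold (adjusted p = 0.0869 and 0.0876, limma).

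Among 60S assembly factors Rrs1, which helps bring the 5S RNA particle into the precursor, had the clearest difference. It was 10.24, 10.17 and 10.23 in the floxed control, 10.29, 10.23 and 10.32 in the Cre control, and 10.59, 10.52 and 10.49 in cKO. The gap between the lowest cKO and the highest control library was wider than the spread of either control, and Rrs1 rose by a log2 difference of 0.32 ± 0.043 (SE; adjusted p = 0.0008, limma) over the floxed control and 0.26 ± 0.043 (adjusted p = 0.0121) over the Cre control. Ddx18, an RNA helicase of 60S assembly, was 10.55, 10.54 and 10.57 in the floxed control, 10.55, 10.51 and 10.63 in the Cre control, and 10.84, 10.71 and 10.72 in cKO. The controls overlapped, and cKO was higher by 0.20 ± 0.048 (adjusted p = 0.00828) and 0.19 ± 0.048 (adjusted p = 0.0364). The latter call was lost in 8 of the 9 fits that left out 1 library (kept without Cre control replicate 1). It was also lost without the minimum on low values, with only the 6 libraries compared, and after correction for GC content and length. Bop1 is a partner of Pes1 and Wdr12 in the PeBoW complex and did not pass the test. It was 10.48, 10.36 and 10.37 in the floxed control, 10.24, 10.46 and 10.47 in the Cre control, and 10.43, 10.46 and 10.44 in cKO, a difference of 0.04 (95% interval -0.10 to 0.18; adjusted p = 0.674) over the floxed control. Pes1 rose by 0.18 ± 0.038 (adjusted p = 0.00559) and Wdr12 by 0.19 ± 0.056 (adjusted p = 0.0219). The 95% interval of Bop1 overlapped those of Pes1 (0.09 to 0.26) and Wdr12 (0.07 to 0.32). A difference between the 3 partners was not tested. Bop1 overlaps Mroh1 and Scx on the opposite strand. Of the remaining 60S factors, Nop16 rose by 0.27 and the methyltransferase Nop2 by 0.17, while Rrp1b (0.07) and Nip7 (0.15) did not pass. Wdr12 lost its call without the first floxed control library or without the first or the second cKO library. With 1 library left out at a time, Nop2 lost its call without the first or the second floxed control library and without any 1 cKO library. The call of Nop2 was also lost after correction for GC content and length.

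Where cKO was compared with the Cre control, so that both groups carried the transgene, fewer members passed. The log2 difference was above 0 for 38 of 39 members (53.7% of all genes tested), with a median of 0.124 against 0.012 for all genes tested. Of the 39 members, 8 rose (Ncl, Npm1, Nolc1, Pa2g4, Fbl, Ltv1, Ddx18 and Rrs1) and 0 fell, against a background of 4.86% of all genes tested that rose and 4.85% that fell (limma). These 8 were 12.9% to 19.3% higher in cKO, and 0 passed with a fold change over 1.5, as 0.563% of all genes did. All 8 had also risen over the floxed control, and these comparisons share the cKO libraries. The cKO libraries lay above the Cre control libraries for 15 of 39 members, where 17.8% of all genes tested did so. For 15 of 39 members every cKO library was above all 6 control libraries, against 14.7% of all genes tested. The count of 8 rested on few libraries. It was 3, 5 and 3 without floxed control replicates 1, 2 and 3 in turn, 16, 1 and 1 without each Cre control replicate in the same order, and 1, 2 and 3 without each cKO replicate. It was 1 when only the 6 libraries compared were fitted, and Rrs1 was the only member called in all 9 fits that left out 1 library. Against the floxed control, 15 of the 21 calls stood in all 9 such fits, with counts between 15 and 23.

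Between the control genotypes 0 of 39 members passed, where 8 genes in all did, 0.057% of those tested (limma). At an unadjusted p under 0.05 there were 4 members, Polr1a, Polr1b, Gnl3 and Nop16, all higher in the Cre control, where 17.5% of all genes tested reached that p in either direction. The median log2 difference of the members was 0.046 and 31 of 39 were above 0, against 49.6% of all genes tested. Polr1a differed most, by 0.24 ± 0.050 (SE; adjusted p = 0.14), and passed without the first Cre control library (adjusted p = 0.0456). The group means rose in the order floxed control, Cre control, cKO for 30 of 39 members, against 33.9% of all genes tested.

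The members were also followed library by library, as the median over the 39 of the log2 value minus the floxed control mean. This median was 0.017, -0.034 and 0.013 in the floxed control, 0.087, 0.013 and 0.058 in the Cre control, and 0.236, 0.147 and 0.143 in cKO. All cKO libraries lay above all controls, and the first library was the highest in each of the 3 genotypes. The first Cre control library was high for the box H/ACA class (0.201, against 0.024 and 0.074 in the others) and the box C/D class (0.117, against 0.022 and 0.055). For the small subunit class it was the lowest of its group (-0.027, against -0.010 and 0.032).

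**Figure D4:**
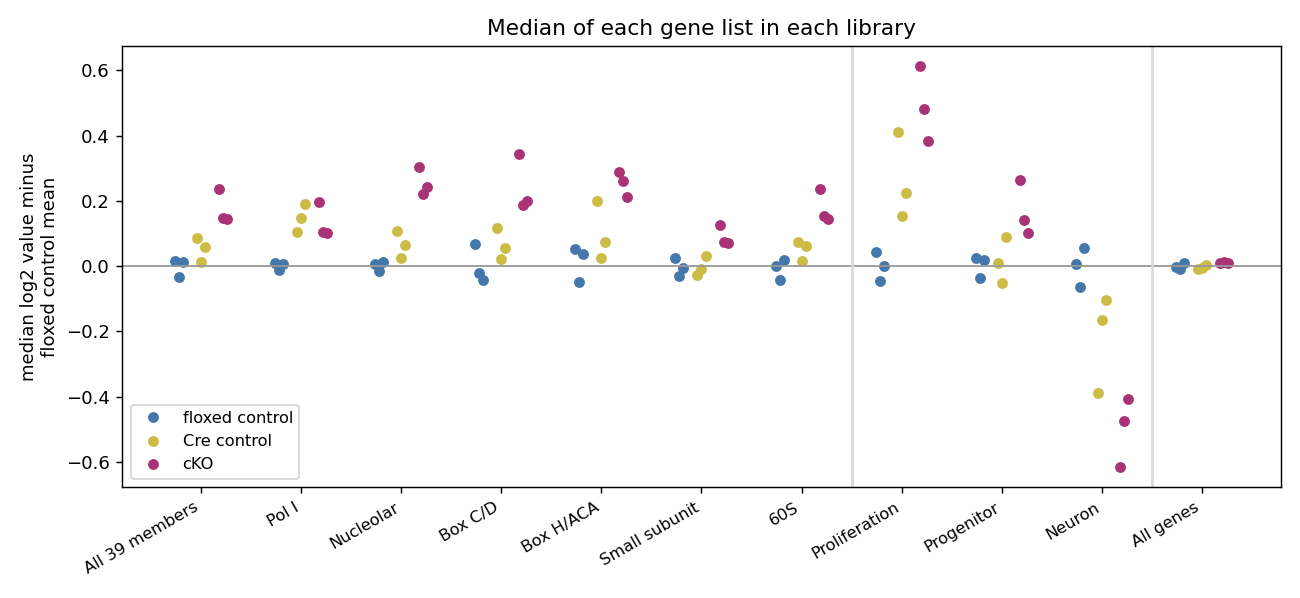
Median log2 value of each list in each library minus the floxed control mean (dots; 3 libraries per genotype), for the members, their role classes, 3 marker lists and all genes tested. The members' medians in cKO lie at 0.143 to 0.236 while all genes stay near 0, proliferation markers rise to 0.384 to 0.613 and neuron markers fall to -0.408 to -0.615.

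Over the floxed control, markers of dividing cells were higher in cKO, as the members were, and markers of neurons were lower. Of 10 proliferation markers, 9 rose in cKO over the floxed control (median log2 difference 0.493), and their summed level was 1440 to 1540 in the floxed control, 1620 to 1870 in the Cre control and 1800 to 2120 in cKO (cpm of the linear values). All 10 neuron markers fell (median -0.508), from 5330 to 5720 in the floxed control and 4240 to 5090 in the Cre control to 3710 to 4140 in cKO. The proliferation medians in the Cre control libraries were 0.411, 0.153 and 0.224, and the neuron medians were -0.388, -0.165 and -0.104, so the first library stood apart there too. Neural progenitor markers rose for 4 of 8. Among all genes tested 19.5% rose and 18.8% fell over the floxed control. Erythroid markers rose for 6 of 8 (8750 to 16800 cpm in cKO, 5650 to 9650 in the floxed control) and mesenchyme and meninges markers for 5 of 6 (2080 to 2190 against 948 to 1800). In the Cre control the sums of these 2 lists were 6750 to 7960 and 1210 to 2090 cpm. Against it 3 of 8 erythroid and 0 of 6 mesenchyme and meninges markers rose. In the same comparison 4 of 10 proliferation (median 0.249) and 3 of 8 progenitor markers rose, and 3 of 10 neuron markers fell (median -0.23). Among all genes tested 4.86% rose there and 4.85% fell. Between the controls 10 of 10 proliferation markers (higher in the Cre control) and 8 of 10 neuron markers reached an unadjusted p under 0.05 (limma), beside 17.5% of all genes tested, and 0 passed. In the next sentence the comparison is again with the floxed control. Endothelial markers rose for 2 of 5 and microglial markers for 0 of 5, and 1 of 3 tested neural crest glia markers rose. No marker was at 0 in every library. The part of these cell types in the members' rise was not tested. The midbrain markers En1, En2, Otx2, Pax7, Lmx1b and Pax2 all passed the minimum, at a sum of 400 to 514 cpm, and so did the forebrain markers Emx2 and Six3 and the hindbrain markers Hoxa2 and Hoxb2. Over the floxed control Pax7 (log2 difference -0.48, adjusted p = 0.00595, limma) and Pax2 (-0.63, adjusted p = 0.0146) fell in cKO, as did Hoxa2 (-0.85, adjusted p = 0.00273) and Hoxb2 (-0.89, adjusted p = 0.0132), while Emx2 (-0.01) and Six3 (-0.04) did not pass. Against the Cre control 0 of these 10 markers passed (limma; 2 at an unadjusted p under 0.05), and the median of the 4 neighbouring markers was -0.445 over the floxed control and 0.058 over the Cre control. The part of tissue boundaries at dissection in the members' rise was not tested.

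Other genes of ribosome biogenesis were followed in a wider list of 125 genes that excludes the 39 members, of which 121 were tested. Of these, 42 rose (34.7%) and 2 fell in cKO against the floxed control, beside 19.5% of all genes tested that rose and 18.8% that fell. The median log2 difference of the list was 0.106, and 104 of 121 were above 0, beside 52.4% of all genes tested. The highest were Rrp15, a 60S factor (0.28), Emg1, an 18S RNA methyltransferase (0.28), and Shq1, a chaperone of dyskerin (0.24), and the lowest were Gnl3l, a relative of Gnl3 (-0.28), Nvl, a 60S ATPase (-0.15), and Ddx55, a 60S helicase (-0.12). Gnl3l and Nvl fell at adjusted p = 0.00632 and 0.0368 (limma), and Ddx55 did not pass. Among the 40 tested small subunit genes of this list 14 rose (35%, median log2 difference 0.114), beside 2 of the 14 small subunit members. Of its 48 60S genes 17 rose and 2 fell (35.4% rose, median 0.09). Of its 8 tested snoRNP assembly genes 3 rose (37.5%, median 0.095). The differences between these shares were not tested. Against the Cre control 6 of the 121 rose (4.96%, beside 4.86% of all genes) and 1 fell, at a median of 0.086.

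The Myc genes themselves were given with the list, since the members are known Myc targets. Myc (log2 difference -0.02 over the floxed control), Mycn (0.05) and Mycl (0.03) did not pass the test, with upper 95% limits of 0.14, 0.17 and 0.15. Of the genes for Max and its repressor partners, Mxd3 rose by 0.36, Mxd1 (-0.22), Mxd4 (-0.13) and Mnt (-0.21) fell, and Max (-0.05) and Mxi1 (0.02) did not pass. Against the Cre control Mxd4 fell by 0.15 on the log2 scale (adjusted p = 0.0476, limma), and the other 8 genes did not pass (Mxd3 0.18, Mxd1 -0.15, Mnt -0.02).

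Several members carry small nucleolar RNA genes within their own gene bodies, a trait the choice of members did not use. By the GENCODE annotation of GRCm38, 7 of 39 members did (Ncl, Gnl3, Nop56, Nop58, Dkc1, Wdr43 and Tsr1), or 17.9%, against 1.76% of all tested genes in the annotation. Nop56 holds Snord57 and Snord110, for example, Gnl3 holds Snord19 and Snord69, and Ncl holds Snord82 and Snora75. Of the 7 hosts 6 rose over the floxed control, with a median log2 difference of 0.236, and of the 32 other members 15 rose, with a median of 0.142. Among all 244 tested hosts of such genes 31.1% rose, with a median of 0.052, and among all tested genes in the annotation 19.6% rose, with a median of 0.011. Over the Cre control 1 of the 7 hosts rose (median 0.124) and 7 of the 32 other members (median 0.122), beside 4.86% of all genes tested. The calls of the hosts Nop58 and Dkc1 over the floxed control were lost in several fits, as given above. The difference between hosts and other members was not tested. Libraries were made after poly-A selection and the values are those of the host messenger RNA, so the small RNAs were not measured here. In all, 18 of 39 members overlap a gene on the opposite strand, among them Nop56 (Idh3b), Dkc1 (Mpp1) and Nhp2 (Rmnd5b).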

How the data were processed

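The authors sequenced poly-A selected RNA (NEBNext Ultra) from 9 midbrain samples and deposited 1 table of log2 values, normalized between libraries. Whether a library came from 1 fetus or a pool is not given in the sources used here, so p-values measure the spread between these samples. The submitters' processing notes name FastQC 0.10.1, kallisto 0.46.1, DESeq2 and mm10. The transformation and the annotation release are not given in the sources used here. The table's column names (WT, Het and KO with a number) were matched to the sample labels (WT, Het and Homo), and the titles of the cKO samples spell the gene Gpt161. Depth is unknown, since the values are not counts.

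From the 27360 rows, named genes were kept if 3 or more libraries reached 1 cpm, computed from the linear values. Repeated names (118 rows) were dropped, which left 14029 genes. The model held a mean per genotype and used all 9 libraries (limma 3.58.1 in R 4.3.3, eBayes with a trend, two-sided moderated tests, Benjamini-Hochberg adjustment over all genes), after a test on simulated data. The members, roles, lists and alternatives were chosen with earlier results of these data known. Values in every library are given for the largest and smallest difference of each role class over the floxed control and for members called against the Cre control (17 members), and from the wider list for the 3 highest and 3 lowest differences and the Myc family. Gene positions, length and GC content were taken from GENCODE M21 on GRCm38 (found for 13901 genes, 99.1%). Marker sums in cpm are shares of the linear sum. Protein sequences were not analysed here.

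Alternatives were the filter on low values (none, or 10 cpm), eBayes without a trend, only the 6 libraries compared, median centring, quantile normalization, a replicate block, a correction for GC content and length, a fold change over 1.5 and the omission of each library. Deviations of libraries with the same replicate number correlated at -0.0272 to 0.26 across genes (median 0.102). Those of libraries with different numbers correlated at -0.282 to 0.161 (median -0.0526). The former were higher in the median but not all above 0.1, and the ranges overlapped, so the numbers were not taken as pairs.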

Additional observations from a re-analysis of the deposited data

How the results depend on the processing

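Against the floxed control, the count of 21 members called higher became 0 when a fold change over 1.5 was also required, and lay between 15 and 23 when 1 library was left out. Their median log2 difference lay between 0.138 and 0.203. Against the Cre control, the count of 8 became 5 with no filter on low values, 5 after quantile normalization, 1 with only the 6 libraries compared and 0 at a fold change over 1.5. It lay between 1 and 16 when 1 library was left out, with 16 reached without the first Cre control library. Between the controls the count of 0 became 1 (Polr1a) without the first Cre control library, and stayed 0 in the other fits that left out 1 library (0 to 1). With the replicate number as a block, the counts were 21, 10 and 0, and the numbers were not shown to pair the samples. No median of the members changed sign in any of the 17 alternatives to which it applied. The causes were not tested. Depth could not be read from the values, so the precision of single values from counting is unknown.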

Other observations

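Genes of the nuclear exosome and of precursor rRNA decay, which trim and degrade the spacer RNA that ribosome biogenesis leaves behind, were part of the wider list. Of 12 tested, 5 rose in cKO over the floxed control and 0 fell, at a median log2 difference of 0.132 (all genes tested 0.011; 19.5% of all genes rose). Against the Cre control 0 of 12 passed in limma, 0 of 12 also at an unadjusted p under 0.05, with a median of 0.085. The other genes of RNA polymerase I and its initiation factors rose for 3 of 13 over the floxed control (median 0.068), and the snoRNP assembly factors for 3 of 8 (median 0.095).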
